A study of Mus musculus with 12 samples.

Results

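The Hox genes encode homeodomain transcription factors that give cells their position along the body axis and along the limbs. In mammals they lie in the clusters Hoxa, Hoxb, Hoxc and Hoxd, and genes at the same place in different clusters form a paralog group. Low-numbered groups, at the 3′ end of a cluster, are active toward the head, and high-numbered groups, at the 5′ end, toward the tail and the limb tips. Connective tissue cells are known to keep a pattern of Hox genes that follows the site they came from, and some members, Hoxa9 and Hoxb4 among them, are also known for their part in blood stem and progenitor cells.

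The members were the probe sets (groups of short oligos that read 1 transcript region) whose annotation carried a single gene symbol made of Hoxa, Hoxb, Hoxc or Hoxd and a number. This gave 48 of the 45037 probe sets of the array, and 33 of its 18193 genes with a single-symbol probe set. The gene table of the assembly lists 39 Hox genes. The other 6, with 2 in Hoxa, 1 in Hoxb, 2 in Hoxc and 1 in Hoxd, had no member and are not analysed here. A further 3 probe sets that share a Hox symbol with other symbols, and 5 for antisense or opposite-strand transcripts, were not members. Where a gene had several probe sets, the one of highest average stood for it and the others are given beside it.

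RNA came from 12 cultures of mesenchymal stem/stromal cells (MSCs), sorted as Sca-1+ and Pdgfr-α+ cells from the bone marrow of C57BL/6 mice that the labels give as male and 6 weeks old. For the co-culture group (MSCs and HSCs), 3000 MSCs were kept for 6 days with 7000 hematopoietic stem/progenitor cells (HSCs), sorted as Lin-, Sca-1+ and c-Kit+, and in the MSC-only group (control) for the same time without them. Each group held 6 arrays. According to the study's methods the MSCs of its co-cultures came from EGFP mice, in which the CAG promoter drives the transgene, and marrow was taken from the femur, tibia and ilium. No second sort before RNA extraction is described, whether contact was direct or through an insert is not stated for these arrays, and no source says which cultures share a mouse, so p-values measure the spread between these cultures only.

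Most arrays did not match the sex that the labels give, and no source gives the sex of the HSC donors. Xist, which is transcribed from the inactive X of female cells, had a signal of 13136 to 17840 in all 6 co-cultures and of 16810 to 21978 in controls 3 and 4, against 60.5 to 118 in the other controls. Eif2s3y, a Y-linked gene, lay between 0.5 and 13.6 on the 4 arrays numbered 3 and 4. On the rest it lay between 1022 and 1331 in co-cultures and between 2604 and 2845 in controls, without overlap. The Y-linked Uty (343.9 to 531.7 against 800.9 to 1041) and Kdm5d (260.4 to 355.2 against 658.1 to 776.2) were likewise lower in these co-cultures. The source of this difference was not tested. The first principal component, computed without the Hox probe sets, carried 36.8% of the variance and divided the arrays across the groups, with controls 1, 3 and 5 and co-cultures 2, 3 and 5 on one side and the other 6 arrays on the opposite side. The source of this division is not given by the labels. Markers of the labelled stroma and of macrophages were both present: 13 of 17 measured stromal markers, Pdgfra and Col1a2 among them, and all 11 measured macrophage markers lay above the floor described next on every array, and the leukocyte antigen Ptprc had a signal of 10425 to 13144. The summed macrophage signal was 216082 to 299038 in controls and 227151 to 303043 in co-cultures, and the summed stromal signal was 38994 to 80518 and 37617 to 76348. Of 11 measured blood progenitor markers, Tal1, Procr and Gata2 lay above the floor on all 12 arrays and the other 8 on at most 3, with Kit on 3, Cd34 on 2 and Flt3 on 0. Of 6 endothelial markers, Vwf and Kdr did so on all 12, Emcn on 5, and Pecam1, Cdh5 and Tek on 0. Tal1, Gata2 and Vwf are also known from other blood lineages. The part of macrophages or blood cells in the Hox signals was not tested, and in bulk RNA fewer cells of a type and less RNA per cell cannot be told apart.

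To say whether a Hox gene was measurable, a floor was set on each array at the 95th percentile of 77 probe sets for olfactory and vomeronasal receptors, genes with no known role in stroma or blood. The floor lay at a signal of 44.6 to 77.0. A signal under it does not show that a gene is silent, and signals of different probe sets cannot be set against each other, since each probe set has its own brightness.

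Of the 33 Hox genes, 7 lay above the floor on all 12 arrays: Hoxa3, Hoxa5, Hoxa9, Hoxa10, Hoxb3, Hoxb4 and Hoxc8. A further 7 did so on at least 6 arrays, namely Hoxc10 and Hoxd8 on 11, Hoxc6 on 10, Hoxb2 and Hoxc13 on 9, and Hoxa11 and Hoxc9 on 8. Of the other 19 genes, 8 lay above the floor on 1 to 5 arrays and 11 on none. The share of Hox genes above the floor on every array was 21.2%, beside 54.4% of all genes, and the share on at least 6 arrays was 42.4%, beside 62.9%. Single arrays held 12 to 16 Hox genes above their own floor in controls, with a median of 13.5. In co-cultures they held 11 to 17, with a median of 12.5, and these ranges overlapped. The count of an array depends on its floor, which was 44.58 to 64 in controls and 45.96 to 77 in co-cultures. The highest counts, 16 on control 6 and 17 on co-culture 4, stood on the lowest floor of their group.

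**Figure D1:**
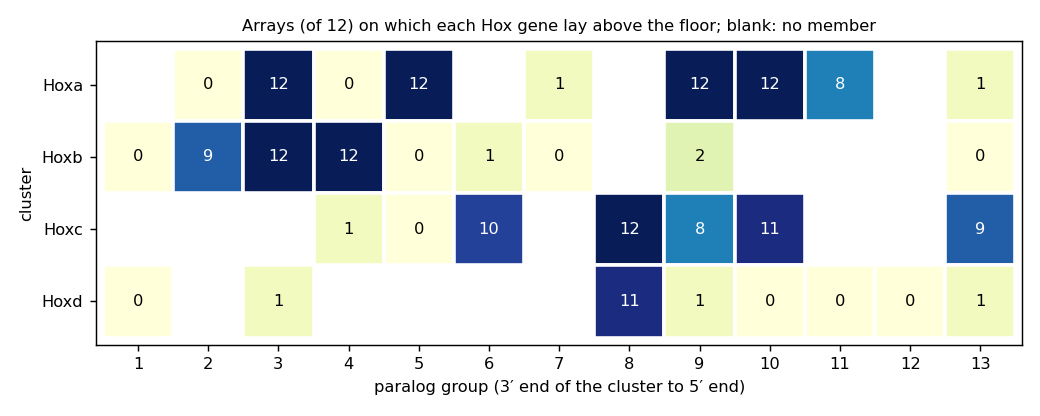
Number of the 12 arrays on which each Hox gene lay above the array's floor, with clusters as rows and paralog groups as columns. Blank squares are places with no member, either because no such gene exists or, for 6 genes, because no probe set carried the symbol alone. Counts of 12 stand in the Hoxa, Hoxb and Hoxc rows, and the Hoxd row reaches 11 at group 8 and otherwise at most 1.

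By cluster, Hoxa held 5 of 9 measured genes above the floor on at least 6 arrays, 4 of them on all. Hoxb held 3 of 9, Hoxc 5 of 7 and Hoxd 1 of 8, Hoxd8. Along the measured members of a cluster, the run of genes above the floor was interrupted in Hoxa only. In Hoxa the members above the floor, Hoxa3, Hoxa5 and Hoxa9 to Hoxa11, were interrupted by Hoxa4 on 0 arrays and Hoxa7 on 1. In Hoxb they were the 3′ members Hoxb2, Hoxb3 and Hoxb4, while Hoxb5 and Hoxb7 lay above it on 0 arrays and Hoxb6 on 1. In Hoxc all measured members from Hoxc6 to Hoxc13 were among them, with Hoxc4 on 1 array and Hoxc5 on 0. In Hoxd, Hoxd10, Hoxd11 and Hoxd12, which pattern the distal limb, lay above the floor on 0 arrays and Hoxd13 on 1.

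By paralog group, 3 of the 7 measured genes of groups 1 to 3 lay above the floor on at least 6 arrays, 5 of the 12 of groups 4 to 8 and 6 of the 14 of groups 9 to 13. In groups 11 to 13 these were 2 of 7, Hoxa11 and Hoxc13. Group 8 was the only group in which every measured gene, Hoxc8 and Hoxd8, passed, and in groups 1, 7 and 12 no measured gene did. In group 9, Hoxa9 and Hoxc9 passed while Hoxb9 lay above the floor on 2 arrays and Hoxd9 on 1.

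Hoxa5 to Hoxa10 show neighbouring members with different readings, and windows at their starts are given for that reason, for Hoxa10 the first of 2 in the table. Each window, from RefSeq for GRCm38.p6, spans 300 bases, most of them ahead of a transcription start. Capitals mark matches on either strand to the TATA box TATAAA, the CCAAT box CCAAT, the GC box GGGCGG and TGACAG, the core bound by Meis proteins.

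Hoxa5, chr6:52204538-52204837, minus strand: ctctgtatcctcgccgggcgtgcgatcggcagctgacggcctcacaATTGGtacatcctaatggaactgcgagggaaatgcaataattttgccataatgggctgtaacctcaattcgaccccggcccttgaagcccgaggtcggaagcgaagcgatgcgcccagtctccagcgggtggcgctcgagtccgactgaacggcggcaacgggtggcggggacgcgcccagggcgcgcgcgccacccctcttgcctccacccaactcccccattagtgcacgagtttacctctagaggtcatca
Hoxa7, chr6:52218524-52218823, minus strand: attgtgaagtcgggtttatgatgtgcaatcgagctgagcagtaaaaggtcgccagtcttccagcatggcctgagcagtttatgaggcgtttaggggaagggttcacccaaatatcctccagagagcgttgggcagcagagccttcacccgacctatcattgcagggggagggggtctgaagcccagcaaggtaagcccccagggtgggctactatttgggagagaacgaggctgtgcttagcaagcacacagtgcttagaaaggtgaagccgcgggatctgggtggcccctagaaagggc
Hoxa9, chr6:52227321-52227620, minus strand: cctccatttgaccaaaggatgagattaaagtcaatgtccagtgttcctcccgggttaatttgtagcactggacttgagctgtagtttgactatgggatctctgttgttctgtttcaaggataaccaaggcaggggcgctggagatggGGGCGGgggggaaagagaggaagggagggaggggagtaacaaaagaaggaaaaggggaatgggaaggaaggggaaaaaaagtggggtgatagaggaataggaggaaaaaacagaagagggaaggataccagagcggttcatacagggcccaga
Hoxa10, chr6:52234890-52235189, minus strand: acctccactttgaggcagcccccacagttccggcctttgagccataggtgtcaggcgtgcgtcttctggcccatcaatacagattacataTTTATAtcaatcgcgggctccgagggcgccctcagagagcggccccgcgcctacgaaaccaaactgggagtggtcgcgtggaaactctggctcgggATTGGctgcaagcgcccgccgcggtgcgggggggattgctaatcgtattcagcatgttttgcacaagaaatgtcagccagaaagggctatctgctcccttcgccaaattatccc

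The Hoxa5 window held a CCAAT box on the opposite strand, the Hoxa9 window a GC box, and the printed Hoxa10 window a TATA box and a CCAAT box, both on the opposite strand. The second Hoxa10 window, at chr6:52240805-52241104 and not printed, held 2 GC boxes and neither a TATA nor a CCAAT box. The Hoxa7 window held no match, which says only that these letters are not in it. In all, 21 windows of 19 Hox members were given in the table. A CCAAT box stood in 57.1% of them and in 37.4% of all 32851 windows, a GC box in 38.1% and 35.7%, a TATA box in 9.52% and 13.6%, and the Meis core in 9.52% and 19.2%. The median GC content was 58% in the Hox windows and 52.7% in all windows. For the 8 windows of members above the floor on at least 6 arrays it was 55.8%, and 60.3% for the 13 windows of the rest. These matches are descriptions of letters and not binding sites.

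In the Hoxa cluster, Hoxa9, a factor of limb patterning and of blood progenitors, had a control signal of 350.0 at lowest, 409.1 at the median and 663.0 at highest. In co-cultures these were 322.1, 409.9 and 629.7. The medians lay side by side, and the difference of means was -0.11 (SE 0.20) on the log2(signal + 16) scale, which is used for every difference below.

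Hoxa10, a 5′ member needed for hindlimb and uterine patterning, ran from 186.0 over a median of 284.4 to 395.5 in controls and from 141.5 over 232.2 to 389.7 in co-cultures. Its difference of -0.32 (SE 0.25) was the lowest among the 14 genes above the floor on at least 6 arrays. It was -0.64 without the arrays numbered 3 and 4, -0.20 without co-culture 1 and -0.20 without co-culture 6. The ranges of the groups overlapped.

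Hoxa3, a 3′ member of the neck and pharyngeal region, had control signals of 120.3, 188.0 and 230.4 at lowest, median and highest. Its co-culture signals were 156.2, 205.2 and 232.3. The difference was 0.12 (SE 0.15), within the spread of either group.

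Hoxa11, a gene of the middle limb segment, lay near the floor, at 42.4 to 130.5 in controls and 68.9 to 137.9 in co-cultures, with a difference of 0.25 (SE 0.25) that was 0.06 without the arrays numbered 3 and 4. It passed the floor on 4 arrays of each group.

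Hoxa5, active in the neck and upper trunk and its mesoderm, had the highest difference of the 14. Its representative probe set read 117.5, 140.5 and 226.5 in controls and 163.5, 237.1 and 331.0 in co-cultures, a mean signal of 156 ± 39.5 against 233 ± 63.9 (SD, n = 6 each). The difference was 0.52 (SE 0.19, 95% interval 0.11 to 0.93), with an unadjusted limma p of 0.0166 and an adjusted p of 1.0, so that it was not called. The groups overlapped, with 3 of the 6 co-cultures above the highest control. The second Hoxa5 probe set did not share this difference: it read 63.3 to 223.8 in controls and 72.5 to 222.9 in co-cultures, a difference of -0.08 (SE 0.32). By the maker's naming the first of these probe sets, marked x, may also bind other transcripts. The representative probe set of Hoxc6, described below, carries the same mark.

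In the Hoxb cluster, Hoxb4, known for the expansion of blood stem cells, read 136.4, 168.9 and 247.6 in controls and 137.1, 182.5 and 228.9 in co-cultures, a difference of 0.04 (SE 0.16). Hoxb3, its hindbrain and neck neighbour, read 149.3, 202.3 and 221.5 in controls and 119.7, 220.9 and 282.8 in co-cultures, a difference of 0.11 (SE 0.18). For both genes the difference was smaller than its standard error. Hoxb2 ran from 32.6 to 164.6 in controls and from 40.3 to 101.4 in co-cultures, with medians of 65.2 and 73.2, and passed the floor on 5 and 4 arrays.

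In the Hoxc cluster, Hoxc8, a thoracic member, read 101.8, 123.3 and 141.8 in controls and 86.3, 115.4 and 180.3 in co-cultures, a difference of -0.03 (SE 0.16). Hoxc10, active in the lumbar region and hindlimb, read 72.6, 111.9 and 168.8 against 65.0, 88.0 and 181.2, a difference of -0.23 (SE 0.22). Hoxc6 was uneven, with 27.8 and 169.0 at the ends of the controls and 98.5 to 156.7 in co-cultures. Controls accounted for both Hoxc6 arrays under the floor. Hoxc9 and Hoxc13, the latter known from hair and nail, ran from 38.1 to 93.4 and from 46.7 to 151.4 in controls, and from 21.8 to 93.0 and from 48.7 to 121.3 in co-cultures. Their differences were 0.06 (SE 0.26) and -0.07 (SE 0.26). In the Hoxd cluster, Hoxd8 read 73.5, 94.3 and 125.3 in controls and 64.2, 111.7 and 125.0 in co-cultures, a difference of 0.09 (SE 0.16).

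**Figure D2:**
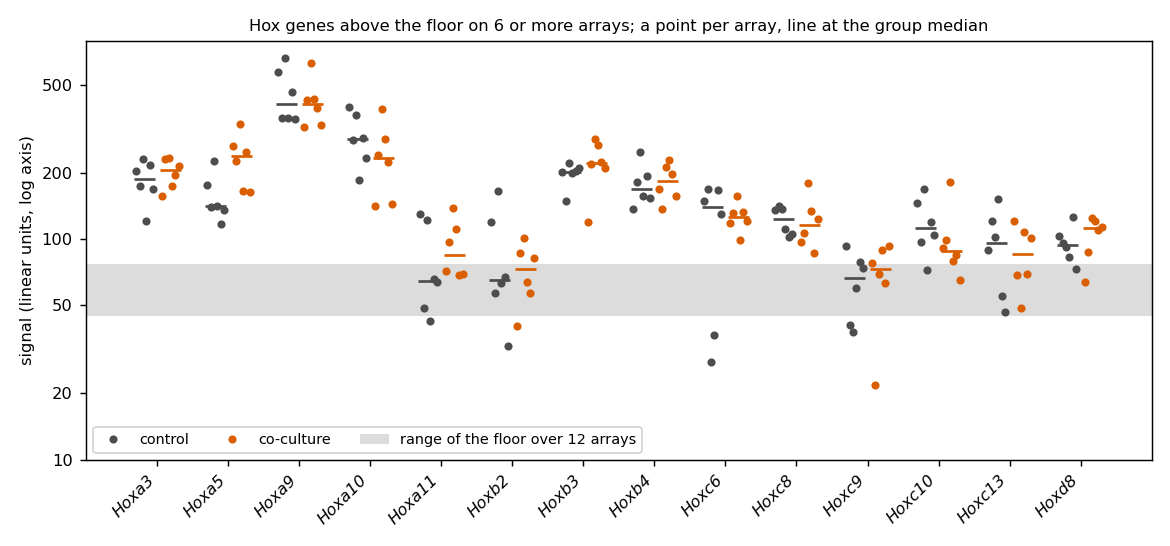
Signal of the 14 Hox genes above the floor on at least 6 arrays, on a log axis in linear signal units, with a point per array (grey control, orange co-culture, 6 each), a line at each group's median and a grey band for the floor of 44.6 to 77.0 over the arrays. Points of the groups overlap for every gene, Hoxa5 included, and levels of different genes are not comparable since each has its own probes.

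Probe sets of the same gene often disagreed. Of the 11 genes with more than 1 probe set, Hoxa5, Hoxa9 and Hoxb4 had all of them above the floor on at least 6 arrays, Hoxa4, Hoxc5 and Hoxd13 had none, and Hoxa3, Hoxa10, Hoxb3, Hoxc6 and Hoxd8 were mixed. For Hoxa3 the representative probe set passed on 12 arrays and its other 3 on 0, 1 and 2. For Hoxa10 the numbers were 12 and 0, for Hoxb3 12 and 4, for Hoxd8 11 and 4, and for Hoxc6 10, 7 and 4. Of all 48 probe sets, 8 lay above the floor on all arrays, 18 on at least 6 and 17 on none. The direction between groups was mixed too: 8 of the 11 genes had probe sets with differences of either sign. The Hoxc6 probe sets differed by 0.62 (SE 0.44), 0.35 (SE 0.36) and -0.61 (SE 0.46), and the second of these values, from the representative probe set, was 0.08 without control 3, 0.13 without control 4 and -0.25 without all arrays numbered 3 and 4.

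Across all 48 probe sets, limma called 0 between co-culture and control at an adjusted p of 0.05, beside 0.00444% of all probe sets, and the smallest adjusted p was 0.939. At an unadjusted p under 0.05 there were 3, beside 4.36% of all probe sets. They were 2 with a higher mean in co-culture, beside 2.81%, namely Hoxa5 and a Hoxc5 probe set, and 1 with a lower mean, Hoxb13, beside 1.55%. A count of 3 in 48 is near that background, and nothing about the members is read from it. In 0 of the 48 did the groups not overlap, beside 0.198% of all probe sets. With the methods' t-test the counts were likewise 0 after Benjamini-Hochberg adjustment and 3 before it.

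The Hoxc5 probe set (log2 difference 0.46, SE 0.14, limma adjusted p = 0.939) read 2.7 to 7.9 in controls and 3.8 to 21.6 in co-cultures, and Hoxb13 (-0.32, SE 0.14) read 2.2 to 16.4 and 1.3 to 3.3. Every one of these signals lies under the floor, where a difference has no measurable level behind it. The other 2 Hoxc5 probe sets had differences of -0.18 and -0.23. Among the probe sets that stand for a gene, Hoxb6 (0.49, SE 0.30) and Hoxb7 (0.34, SE 0.26) with a higher mean and Hoxc4 (-0.45, SE 0.32) with a lower one were also among the 5 of smallest p in their direction, each above the floor on at most 1 array.

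A higher mean in co-culture was found for 27 of the 48 Hox probe sets and a lower mean for 21, beside 54.7% of all probe sets with a higher mean. Under median centring of each array it was 22 of the 48 and 43.8% of all. The median difference was 0.02 for the Hox probe sets and 0.02 for all. Among the 14 genes above the floor on at least 6 arrays, 8 had a higher and 6 a lower mean, with a median difference of 0.05. The median standard error of these 14 was 0.21, so a difference of this size or less lies within the error of 6 arrays a group. Without the 4 arrays numbered 3 and 4, 0 Hox probe sets were called, beside 0.0178% of all, and 5 had an unadjusted p under 0.05, beside 6.85% of all. In that fit 13 of the 14 differences turned sign or changed by over 1.5 times, all but that of Hoxa5, at 0.60. The same 13 did so with at least 1 single array left out.

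**Figure D3:**
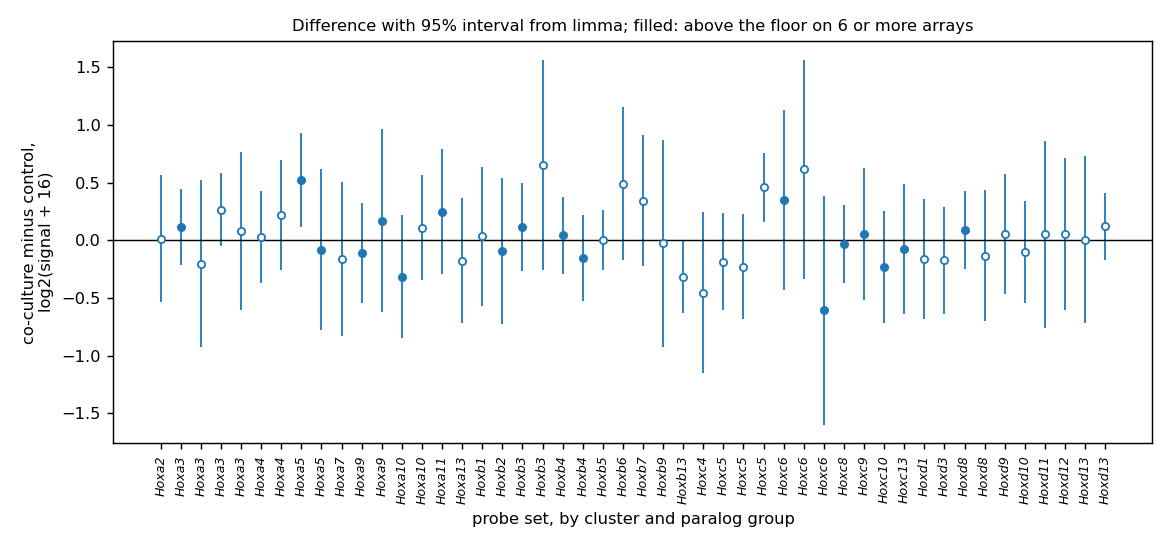
Difference of co-culture minus control for the 48 Hox probe sets on the log2(signal + 16) scale, ordered by cluster and paralog group, with 95% intervals from limma; filled points are probe sets above the floor on at least 6 arrays and open points the rest. Differences run from -0.61 to 0.65, and all intervals of filled points include 0 except that of the Hoxa5 representative probe set, at 0.52.

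The Hox signals were also read along the division of the arrays by the first component. That component was computed on 25049 probe sets above the floor on at least 6 arrays. The Hox probe sets were left out, but those of the cofactors and markers named here were among them. Separation of these companions is therefore a description and no test. The shares of all probe sets and genes also include those that built the component. The representative Hoxa5 probe set read 117.5 to 331.0 on the side of controls 1, 3 and 5 and 134.7 to 264.1 on the other, with overlap. For the second Hoxa5 probe set the 6 arrays on the side of controls 1, 3 and 5 read 139.7 to 223.8, all above the other 6 at 63.3 to 110.7. It was the 1 of 48 probe sets with no overlap in that direction, beside 3.59% of all probe sets, and 0 had none in the opposite direction, beside 3%, both near the background. Hoxa9 read 394.5 to 663.0 on that side and 322.1 to 429.5 on the other, and Hoxa10 read 223.8 to 395.5 and 141.5 to 283.2, both with overlap. Of the 9 measured Hox cofactors, 2 had no overlap in this direction, as for 4.63% of all genes, and the other 7 overlapped. They were Meis1 and Meis2, at 171.7 to 271.0 against 48.3 to 104.1 and at 135.9 to 205.6 against 74.9 to 88.7. Of the 11 macrophage markers, 2 had no overlap in the opposite direction, as for 4.14% of all genes, and the other 9 overlapped. The myeloid integrin Itgam read 269.4 to 496.0 against 760.0 to 1746, and the macrophage antigen Adgre1 8833 to 12218 against 13941 to 16686. Csf1r, the receptor of a macrophage growth factor, read 30954 to 39489 against 22598 to 31022, and the summed signal of the list was 242462 to 303043 against 216082 to 271411, so the list did not move one way. The part of a change in cell types in these values was not tested.

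**Figure D4:**
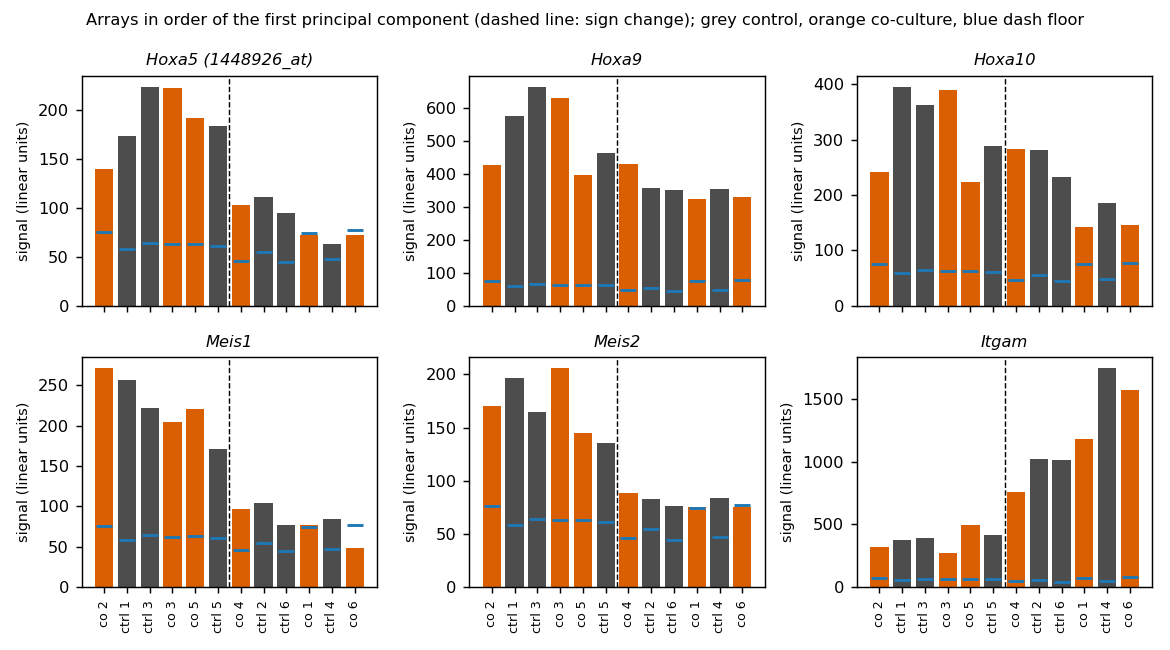
Signal on each of the 12 arrays (bars from 0, linear units, grey control and orange co-culture, blue dash the array's floor), with arrays in order of the first principal component and a dashed line where it changes sign. The second Hoxa5 probe set, Meis1 and Meis2 are higher on the 6 arrays left of the line, Itgam is higher on the 6 right of it, and Hoxa9 and Hoxa10 overlap across it. The representative Hoxa5 probe set, not drawn, also overlaps across it.

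Hox proteins bind DNA with cofactors of the Pbx, Meis and Pknox families, and 9 of 10 listed cofactors were measured. Of these, 0 were called in either direction, beside 0.011% of genes, with 5 higher and 4 lower in mean. Pbx2, a partner that binds beside many Hox proteins, read 1078 to 1278 in controls and 1078 to 1251 in co-cultures. Pbx3 read 523.4 to 637.9 and 504.6 to 663.9, and Pknox1 366.9 to 492.0 and 374.0 to 517.1. Tgif1, a related homeodomain repressor, had a difference of -0.09 (SE 0.10).

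Among the regulators that set Hox transcription, 21 of 24 listed genes were measured and 0 were called, with 15 higher and 6 lower in mean and a median difference of 0.05, beside 0.01 for all genes. The Polycomb subunits Eed, Suz12, Bmi1 and Rnf2, which hold Hox clusters silent, lay above the floor on all arrays and differed by 0.06, 0.01, -0.06 and -0.01. Cbx2, a Polycomb reader, had the smallest p of the list, at -0.22 (SE 0.13), and Kdm6a, which removes the Polycomb mark, differed by 0.26 (SE 0.17). Cdx1 and Cdx4, which switch on Hox genes in the embryo, lay above the floor on 0 arrays and Cdx2 on 1.

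Of 40 other listed transcription factors of limb and region, 37 were measured, 0 were called, and 17 had a higher and 20 a lower mean, with a median of -0.03. Prrx1, a marker of limb and skeletal mesenchyme, read 961.9 to 1482 in controls and 766.9 to 1526 in co-cultures. Shox2, Irx3 and Tbx15 also lay above the floor on all arrays and differed by -0.23 (SE 0.18), -0.20 (SE 0.21) and -0.21 (SE 0.23). Tbx4, the hindlimb gene, and Tbx5, the forelimb gene, lay above it on 0 arrays, while Pitx1, which acts ahead of Tbx4 in the hindlimb, did so on 7. Msx1 (0.47, SE 0.15) and Alx4 (0.45, SE 0.20) had a higher mean and Dlx5 (-0.63, SE 0.28) a lower mean at an unadjusted p under 0.05, beside 3.91% of all genes (2.45% higher and 1.46% lower), and none was called (limma adjusted p = 1.0 for each). Msx1 lay above the floor on 9 arrays, but Alx4 on 5 and Dlx5 on 1.

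The 17 measured stromal markers included 14 with a lower and 3 with a higher mean in co-culture and a median difference of -0.26, with 0 called. A lower mean was found for 46.7% of all genes. Fn1, Col1a2, Sparc and Postn, all matrix genes, differed by -0.26, -0.25, -0.24 and -0.62 (SE 0.21, 0.20, 0.18 and 0.20). The unadjusted p was under 0.05 for Postn, Twist1 and Ddr2, with a lower mean, and for Lum, with a higher one, beside 1.46% and 2.45% of all genes. Postn and Ddr2 lay above the floor on 12 arrays and Twist1 on 9, but Lum on 2. For macrophage markers the counts were 5 higher and 6 lower and the median was -0.00, for blood progenitor markers 7 and 4, and for endothelial markers 5 and 1, with 0 called in each list. Of these, Cd34 (0.74, SE 0.31), above the floor on 2 arrays, had an unadjusted p under 0.05.

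The 7 Hox genes above the floor on all arrays were set against the mean log2 level of the stromal markers. The plan was to do this over all 12 arrays, unless they fell into separate clusters, and within each group. Since the arrays fall into separate clusters, it was done instead within each side of the first component, over 6 arrays each. The tests were two-sided exact permutation tests over all 720 pairings. Each side mixed controls and co-cultures, and the difference between the groups was not taken out. Of the 14 relations, 12 had a Pearson r above 0 and 0 passed Benjamini-Hochberg adjustment, with a smallest adjusted p of 0.0972. Such relations were not computed for other genes. No share over all genes stands beside these counts, and nothing particular to Hox genes is read from them. Hoxa10 gave the highest r on both sides. On the side of controls 1, 3 and 5 its r was 0.917 (exact permutation p = 0.00694) and rho was 0.886 (p = 0.0333, adjusted 0.233). On the other side r was 0.928 (exact permutation p = 0.0347, adjusted 0.165) and rho was 0.943 (p = 0.0167, adjusted 0.233). Without the 2 arrays farthest from the median stromal level, r was 0.598 and 0.98. For Hoxa5 the r was -0.13 (exact permutation p = 0.804) and -0.507 (exact permutation p = 0.289). Without the 2 farthest arrays of a side it was 0.59 and -0.475, so its sign was not stable on the first side. With 64 in place of 16 added before the log, 2 relations passed, with a smallest adjusted p of 0.0486.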

How the data were processed

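The authors hybridized 12 samples to Affymetrix mouse arrays and processed them with GeneChip Operating Software 1.1.1, and the deposited value table holds probe set intensity on a linear scale. All arrays had a 2% trimmed mean of 496.6 to 497.3, a common scaling. The summary method is not given in the sources used here, and an array's number of probes limits its precision. Values were taken as log2(signal + 16) and fitted with limma 3.58.1 in R 4.3.3 (lmFit, eBayes, no block), with Benjamini-Hochberg adjustment over 45037 probe sets and a threshold of 0.05. The fit was tested on simulated data with independent noise for each probe set. These lack the structure that the real arrays share, so the fit under such structure was not tested. Gene symbols came from the platform annotation, and all 48 Hox probe sets matched the RefSeq gene table, with 0 symbols changed. Hox genes above the floor on at least 6 arrays, and those of smallest p in each direction (up to 5), were named, with up to 4 of the brightest and 2 of smallest p from each companion list. Meis1, Meis2, Twist1, Ddr2, Lum, Dlx5, Itgam, Adgre1, Pitx1, Tbx4, Tbx5, the Cdx genes and single cell type markers were added after their values were seen. The members and lists were chosen with earlier results of these data known. Replicate numbers were not used as pairs. The sample titles give the same MSC number to a control and a co-culture, but no label says that it stands for an animal or batch. Arrays of the same number correlated above 0.1 in their deviations for 4 of 6 numbers only. Eif2s3y lay above the floor on the same numbers in both groups. Alternatives were other added constants, scalings, blocks, filters, floors and left-out arrays.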

Additional observations from a re-analysis of the deposited data

Results flagged for a closer look

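In 38 sets of 6 arrays checked, 4 held a lowest array set apart from the others by a gap that chance gives in about 1 in 20 sets. Hoxb3 read 149.3 on control 2, its lowest control, and 119.7 on co-culture 1, its lowest co-culture. Hoxc9 read 21.8 on co-culture 2, and Hoxc5 read 23.6 on control 4, both under those arrays' floors.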

How the results depend on the processing

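The count of called Hox probe sets was 0 under every alternative run, and the smallest adjusted p was 0.592, without the arrays numbered 3 and 4. With the replicate block, and with each array left out, it was 0 too. Deviations of same-numbered arrays correlated at -0.36 and -0.308 for numbers 1 and 2 and at 0.257 to 0.331 for numbers 3 to 6, and 0 arrays correlated best with their own number. The count with a higher mean was 9 of 18 when dim probe sets were left out, a filter that leaves fewer to count, and 23 to 29 with an array left out. The 7 genes above the floor on all arrays became 1 with a fixed floor of 200, 14 with at least 6 arrays required, and 7 to 8 with an array left out. Relations with the stromal level passing adjustment went from 0 to 2 with 64 added (a setting chosen after seeing the data). Without the arrays numbered 3 and 4, signs turned for Hoxb2 (0.0145), Hoxb3 (-0.0128), Hoxb4 (-0.0114), Hoxc6 (-0.25), Hoxc9 (-0.20), Hoxc13 (0.22) and Hoxd8 (-0.0819). With an array left out, ranges that cross 0 were -0.23 to 0.0015 for Hoxa9, -0.27 to 0.11 for Hoxb2, -0.022 to 0.14 for Hoxb4, -0.14 to 0.0474 for Hoxc8, -0.0475 to 0.27 for Hoxc9 and -0.22 to 0.0653 for Hoxc13. The causes were not tested. A block for the Xist class was not run, since all co-cultures have 1 class. Signals under the floor limit what can be read for 19 genes.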
